A study of Mus musculus with 26 samples.

Results

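Male mouse liver holds a set of transcripts that depend on the pulsed way in which males release growth hormone, and 9 of these genes were followed here: Mup20, Mup3, Elovl3, Cyp4a12a, Cyp7b1, Slco1a1, Hsd3b5, Cyp2d9 and Nox4. They were taken by name, 9 of the 36883 gene names in the count table, and each matched 1 line. RNA came from the liver of Eu-MYC mice, whose transgene places MYC under the enhancer of the immunoglobulin heavy chain, which acts in B-lineage cells; such mice are prone to B-lineage lymphoma. All 26 mice carried that transgene by their labels, so no group without it was compared. The libraries came from 4 males and 8 females held under chronic jet lag lighting (CJL) for 8 weeks, and from 6 males and 8 females kept under 12 hours of light and 12 hours of dark (12:12). The sources used here do not give the age or health of the mice, the shifting schedule or the hour of sampling. Growth hormone was not measured, so the name of the set rests on what is known of the genes. The check that these libraries allow is whether the genes were higher in males.

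As background, the pituitary of a male rodent releases growth hormone in pulses separated by near-silent intervals, while release in females is more continuous. In hepatocytes the hormone binds its receptor GHR, the kinase JAK2 is activated, and the transcription factor STAT5b moves to the nucleus with each pulse. Male-biased liver genes depend on this rhythm and lose expression when the pituitary or STAT5b is removed, and female-biased genes such as Cux2 then come up in male liver. The products of the 9 genes serve scent signalling (Mup20, Mup3), steroid, oxysterol and fatty acid metabolism (Hsd3b5, Cyp2d9, Cyp7b1, Cyp4a12a, Elovl3), organic anion uptake (Slco1a1) and hydrogen peroxide production (Nox4).

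By the RefSeq annotation of GRCm38.p6 (the same assembly as mm10), Mup20 lies at chr4:62011337-62054143 and Mup3 at chr4:62083476-62087317, both on the minus strand, and Cyp4a12a at chr4:115299046-115332815 on the plus strand. Cyp7b1 is at chr3:18071944-18243890, Hsd3b5 at chr3:98618636-98645534 and Slco1a1 at chr6:141907281-141946962, all on the minus strand. Elovl3 is at chr19:46131897-46135694, Cyp2d9 at chr15:82452377-82456827 and Nox4 at chr7:87244430-87398710, all on the plus strand. DNA just upstream of a start of transcription is one place where such signals are read, so 3 of the 5 windows that RefSeq gave for members in this build are shown, each the 250 bases before the start that RefSeq's promoter table uses, read 5′ to 3′ on the strand of the gene. Mup3 had the highest level of the set. Relative to the median of 7 other males, pooled over both lightings and described below, Hsd3b5 had the smallest share in CJL male 8. By the same measure Nox4 had the largest share in both males that lost the set. Capitals mark matches to ATCAAT, a core of the sequence bound by HNF6 and CUX2, or to TTCNNNGAA, the spaced palindrome bound by STAT5, each searched on both strands; the motifs share no letters in these matches.
Mup3: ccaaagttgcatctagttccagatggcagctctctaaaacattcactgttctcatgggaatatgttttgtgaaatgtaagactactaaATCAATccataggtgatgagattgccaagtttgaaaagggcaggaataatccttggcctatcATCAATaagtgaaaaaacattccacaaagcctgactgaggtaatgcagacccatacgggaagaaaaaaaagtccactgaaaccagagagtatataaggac
Hsd3b5: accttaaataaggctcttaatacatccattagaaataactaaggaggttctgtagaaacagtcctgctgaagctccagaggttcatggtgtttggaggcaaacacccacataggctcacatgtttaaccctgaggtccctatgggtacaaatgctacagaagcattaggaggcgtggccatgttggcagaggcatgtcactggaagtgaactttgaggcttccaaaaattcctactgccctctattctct
Nox4: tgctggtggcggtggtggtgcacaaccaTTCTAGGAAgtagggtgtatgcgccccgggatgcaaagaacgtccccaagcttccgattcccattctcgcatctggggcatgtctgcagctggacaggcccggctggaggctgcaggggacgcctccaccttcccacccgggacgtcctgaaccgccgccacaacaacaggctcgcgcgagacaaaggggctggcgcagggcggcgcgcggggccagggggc
The Mup3 window lies at chr4:62087318-62087567 on the minus strand, the Hsd3b5 window at chr3:98645535-98645784 on the minus strand, and the Nox4 window at chr7:87246399-87246648 on the plus strand. The start used for Nox4 lies inside the annotated record of that gene, downstream of its first base, so this window is not upstream of the whole record. Counted from the start used, ATCAAT began 162 and 100 bases before that of Mup3 (positions -162 and -100) and TTCNNNGAA spanned positions -222 to -214 of Nox4. No match to either motif lay in the windows of Hsd3b5, Slco1a1 and Cyp2d9. ATCAAT was found in 6.72% and TTCNNNGAA in 7.02% of the 32851 windows of this length in the same table, so a match describes these letters and no more.

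Library totals ran from 45364557 to 50242019 counts, and the most that a count of 0 allows, 3 counts, was 0.0597 to 0.0661 CPM (counts relative to the total of the library). Alb, the hepatocyte marker albumin, took 10.005% to 22.1% of the counts, as is usual for liver. Cd79a, which encodes a chain of the B cell receptor complex, was between 1.28 and 2.95 CPM in 18 libraries and at 8 CPM or more in the other 8, where it ran from 14.5 to 144 CPM. The 3 male libraries of that kind were CJL male 8 (144 CPM), 12:12 male 3 (45.6 CPM) and 12:12 male 5 (26.2 CPM), and 5 were from females. This division by Cd79a was made on measured values with earlier results of these data known, so it describes libraries, and its p-values are not independent evidence. The labels number the mice within each group, and p-values measure the spread between these libraries.

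In the libraries with Cd79a under 8 CPM all 9 genes were higher in males than in females under both lightings, with no overlap between the sexes. Of the 16892 genes tested in the fit of all libraries, 3.2% under CJL and 2.78% under 12:12 lay wholly above the females in those males. Males there comprised 3 libraries under CJL and 4 under 12:12, and females 5 under CJL and 6 under 12:12. All 9 passed the threshold (edgeR adjusted p under 0.05) as higher in males under CJL, where 6.04% of all genes tested passed in that direction, and all 9 did so under 12:12, where 3.66% did. With all 26 libraries in the fit, 7 of 9 passed as higher in males under CJL (1.05% of genes tested) and 8 of 9 under 12:12 (1.67%), and Mup3 missed the threshold under both. In the plot of levels by library, 1 male of each lighting sat among or near the females for most of the genes. The set was chosen as male-biased, so this direction serves as a check on its label.

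**Figure D1:**
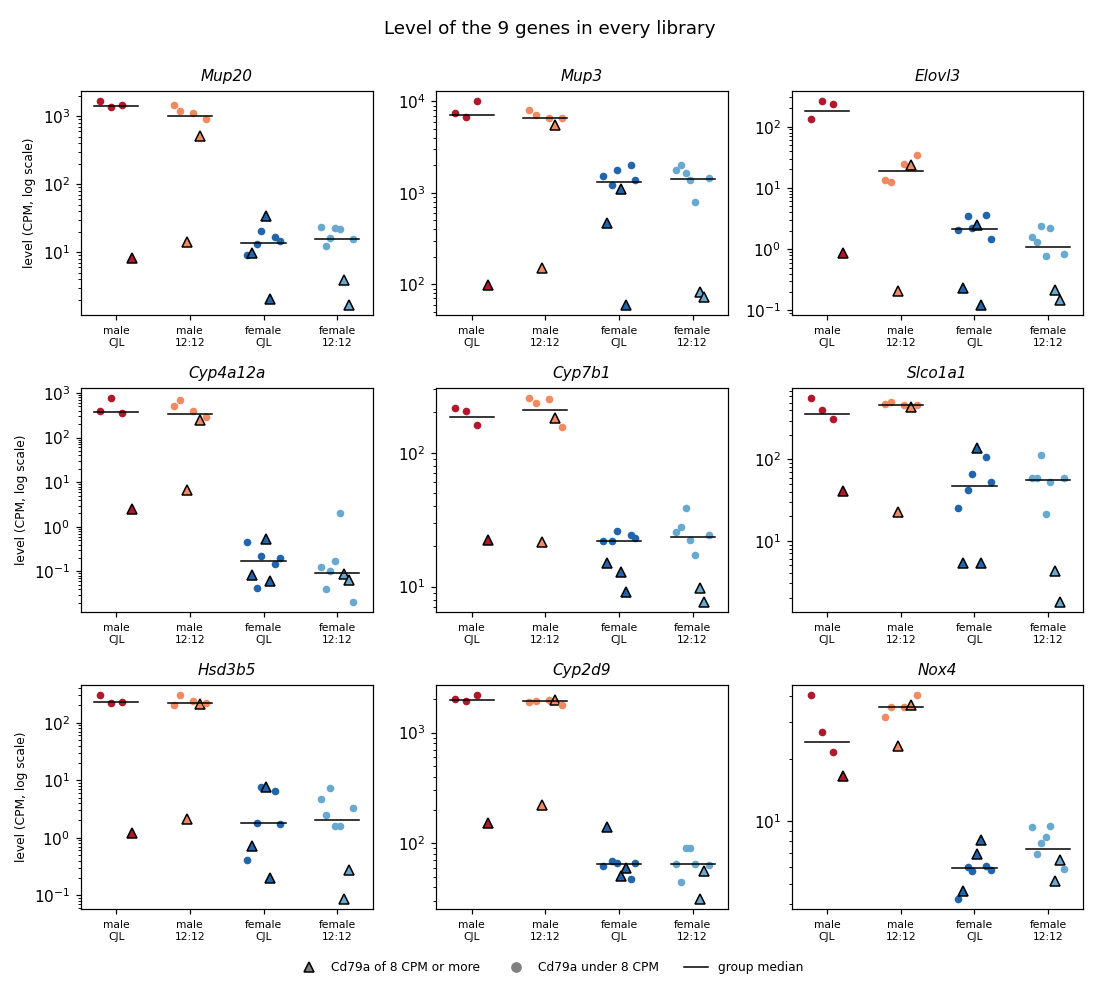
Level of each gene in CPM on a log scale, with 1 point per library, for males under CJL and 12:12 and females under CJL and 12:12. Triangles are libraries with Cd79a of 8 CPM or more, circles are the others, and the line is the group median. CJL male 8 and 12:12 male 3 lie far below the other males in 8 of the panels, and 12:12 male 5 does not.

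Among the scent proteins, Mup20 (darcin, the male urinary protein that attracts females) and Mup3 (another lipocalin that carries volatile scents in urine) were the most abundant per length. Per kilobase of exon, in males with Cd79a under 8 CPM, the median level was 6609 CPM for Mup3, 1488 CPM for Mup20, 733 CPM for Cyp2d9, 167 CPM for Cyp4a12a, 148 CPM for Hsd3b5, 100.3 CPM for Cyp7b1, 89.0 CPM for Slco1a1, 17.2 CPM for Elovl3 and 4.18 CPM for Nox4. Mup20 had 1698, 1381 and 1458 CPM in CJL males 5, 6 and 7 and 8.24 CPM in CJL male 8, against a range of 2.05 to 34.7 CPM and a median of 13.8 CPM in the 8 CJL females. In 12:12 males Mup20 had a lowest value of 14.0, a median of 1024 and a highest value of 1460 CPM, against 1.66, 15.9 and 23.8 CPM in 12:12 females. The fitted log2 fold change of Mup20, males over females, was 6.47 ± 0.967 under CJL (SE, adjusted p = 0.000329) and 6.00 ± 0.923 under 12:12 (adjusted p = 0.000297). Females expressed Mup3 as well. It had 7410, 6708, 10170 and 97.7 CPM in CJL males 5 to 8, against 59.2 to 2024 CPM (median 1303) in CJL females. In 12:12 males Mup3 ran from 151 to 7972 CPM (median 6641.5), against 73.2 to 2000 CPM (median 1416) in 12:12 females. Its log2 fold change over all libraries was 2.59 ± 0.908 under CJL (adjusted p = 0.151) and 2.40 ± 0.844 under 12:12 (adjusted p = 0.125). In the libraries with Cd79a under 8 CPM it was 2.53 ± 0.227 (adjusted p = 1.48e-07) and 2.34 ± 0.203 (adjusted p = 8e-08). The size of the difference was close in both sets of libraries, and its error was smaller in the second.

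The steroid and oxysterol enzymes separated the sexes by larger factors than Mup3 did, though Cyp2d9 and Cyp7b1 did so by smaller factors than Mup20. Hsd3b5, a hydroxysteroid dehydrogenase family member that reduces ketosteroids in male mouse liver, had 306, 222, 229 and 1.19 CPM in CJL males 5 to 8, against 0.203 to 7.78 CPM in CJL females. In 12:12 males it ran from 2.13 to 301 CPM (median 217), against 0.0855 to 7.29 CPM (median 2.03) in 12:12 females. Its log2 fold change was 6.04 ± 1.12 under CJL (adjusted p = 0.00325) and 6.31 ± 1.10 under 12:12 (adjusted p = 0.00109). The value of Hsd3b5 was below that of Mup20 under CJL and above it under 12:12, by less than either SE. Cyp2d9, a testosterone hydroxylase, was at 2026, 1947, 2193 and 152 CPM in CJL males 5 to 8, against 47.2 to 139.6 CPM in CJL females. It was at 222 to 1964 CPM (median 1917) in 12:12 males, against 31.3 to 91.1 CPM in 12:12 females, so even the lowest male exceeded every female. Cyp7b1, the oxysterol hydroxylase of the alternative route of bile acid synthesis, had 217, 206, 162 and 22.3 CPM in CJL males 5 to 8, against 9.14 to 25.9 CPM in CJL females. In 12:12 males it ran from 21.4 to 257 CPM, against 7.65 to 39.0 CPM in 12:12 females. The log2 fold changes were 4.73 ± 0.511 and 4.80 ± 0.493 for Cyp2d9 and 3.18 ± 0.528 and 3.20 ± 0.498 for Cyp7b1 under CJL and 12:12 (adjusted p = 0.000977 or less).

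Of the fatty acid genes, Cyp4a12a, which hydroxylates the end of fatty acids including arachidonic acid, was close to the limit of detection in females. It had 384, 779, 352 and 2.46 CPM in CJL males 5 to 8, against 0.0415 to 0.522 CPM in CJL females. In 12:12 males it had 6.79 to 706 CPM, against 0.0205 to 2.00 CPM in 12:12 females, whose lowest value was under the limit that a count of 0 allows. The log2 fold change was 11 ± 1.25 under CJL and 10.2 ± 1.19 under 12:12 (adjusted p = 6.47e-06 or less), and without 12:12 female 5, the 2.00 CPM library, the second was 12.2. Elovl3, an elongase of very long chain fatty acids, had 131, 265, 235 and 0.868 CPM in CJL males 5 to 8, against 0.122 to 3.58 CPM in CJL females. It had 0.207 to 34.0 CPM in 12:12 males, against 0.149 to 2.35 CPM in 12:12 females. The male over female log2 fold change of Elovl3 was 6.58 ± 1.01 under CJL (adjusted p = 0.000466) and 4.03 ± 0.901 under 12:12 (adjusted p = 0.0107). The difference between these changes, the sex by lighting term, was 2.55 ± 1.27 and did not pass (adjusted p = 0.814; 0.451 in the libraries with Cd79a under 8 CPM). None of the 9 genes passed for that term, as 0% of all genes did by edgeR and by DESeq2, and 902 genes had an unadjusted p under 0.05.

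Slco1a1, a transporter that takes bile acids and steroid conjugates up from the blood, had 572, 409, 310 and 41.1 CPM in CJL males 5 to 8, against 5.29 to 137 CPM in CJL females. It had 22.7 to 513 CPM (median 469) in 12:12 males, against 1.77 to 112 CPM in 12:12 females. Its log2 fold change was 2.79 ± 0.874 under CJL, which missed the threshold (adjusted p = 0.104), and 3.19 ± 0.830 under 12:12 (adjusted p = 0.0305). In the libraries with Cd79a under 8 CPM the CJL value was 3.01 ± 0.414 (adjusted p = 0.000126). Leaving out any of 12:12 males 1, 2 or 4 or 12:12 females 4 or 5 raised the adjusted p of Slco1a1 under 12:12 above 0.05 (0.0517 to 0.0629). Nox4, an oxidase that makes hydrogen peroxide, was the lowest of the set per length. It had 40.6, 26.8, 21.5 and 16.6 CPM in CJL males 5 to 8, against 4.21 to 8.13 CPM in CJL females. It had 23.1 to 40.8 CPM in 12:12 males, against 5.13 to 9.46 CPM in 12:12 females, with log2 fold changes of 2.31 ± 0.215 and 2.30 ± 0.199. Over all libraries the sexes did not overlap for Cyp2d9, Nox4 and Cyp4a12a under either lighting, and they overlapped for the other 6. Of the 16892 genes tested, 0.278% under CJL and 0.456% under 12:12 had every male above every female.

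**Figure D2:**
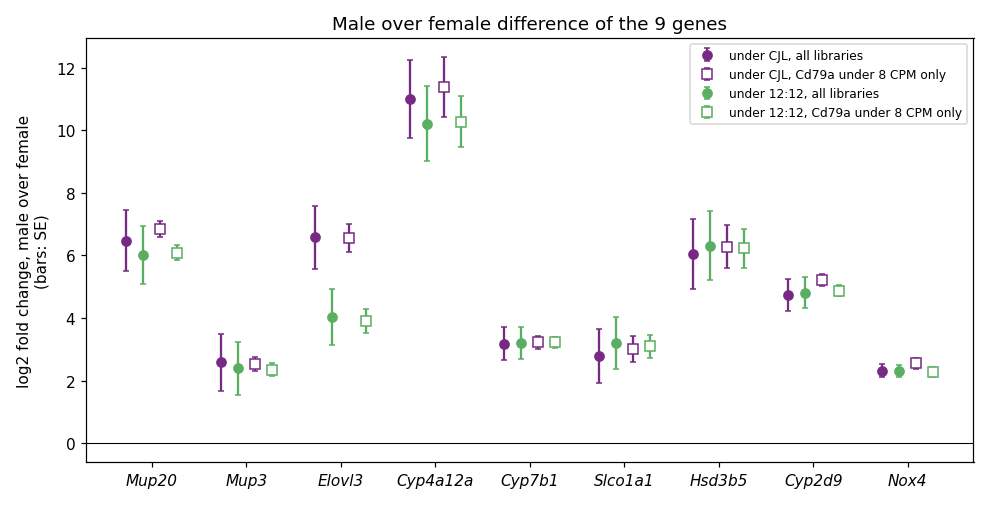
Log2 fold change of each gene, males over females, with its SE, under CJL (purple) and 12:12 (green). Filled circles use all 26 libraries and open squares the 18 with Cd79a under 8 CPM. All values are above 0, and the bars are shorter in the 18 libraries.

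Among the 3 males with Cd79a of 8 CPM or more, 2 libraries had little left of most of the set and 1 kept it. Relative to the median of the other 7 males, the median over the 9 genes was 2.56% in CJL male 8 (from 0.518% to 46.9%) and 2.14% in 12:12 male 3 (from 0.609% to 65.1%). In 12:12 male 5 it was 84.3% (from 36.6% to 103%). Those 7 males pool 3 under CJL and 4 under 12:12, and the 2.56% is the value of Elovl3, which differed between these. The median of Elovl3 was 235 CPM in the 3 and 19.2 CPM in the 4, against 0.868 CPM in CJL male 8 and 0.207 CPM in 12:12 male 3. Its share of the pooled median is thus not a share of the level under the same lighting. All 9 genes in CJL male 8 and 8 of 9 in 12:12 male 3 were below each of the 7 other males, against 21.98% and 16.01% of the 11940 genes with a male median of at least 1 CPM. In 12:12 male 5 3 of 9 were, Mup20, Mup3 and Cyp4a12a, against 4.67% of those genes. Levels under 10% of the median were found for 7 of 9 members in each of CJL male 8 and 12:12 male 3, and for 0.796% and 0.586% of all those genes.

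**Figure D3:**
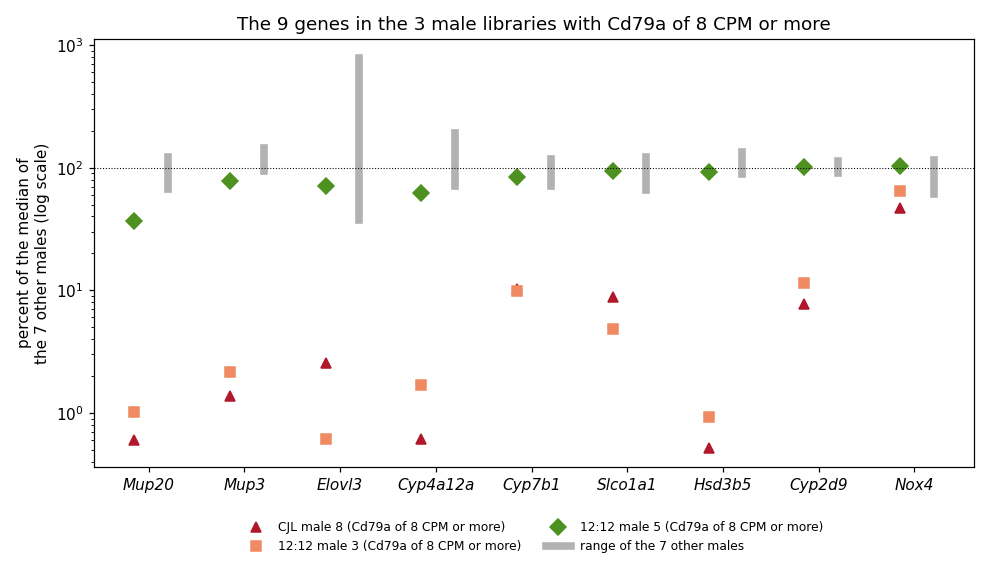
Level of each gene in the 3 male libraries with Cd79a of 8 CPM or more, as a percent of the median of the 7 other males on a log scale, with grey bars for the range of those 7. CJL male 8 (triangles) and 12:12 male 3 (squares) fall under 12% for 8 genes, while 12:12 male 5 (diamonds) stays at 36.6% or more.

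The scent proteins were low in CJL male 8 and 12:12 male 3. Mup20 had 8.24 CPM in CJL male 8, 14.0 CPM in 12:12 male 3 and 506 CPM in 12:12 male 5, against 929, 1381 and 1698 CPM as the lowest, median and highest of the other 7 males. Mup3 had 97.7, 151 and 5510 CPM in the same 3 libraries, against 6613, 7058 and 10170 CPM. For Mup3 the first 2 of these were also below every female with Cd79a under 8 CPM, whose lowest value was 794 CPM. Hsd3b5 had 1.19, 2.13 and 213 CPM, against 205, 229 and 306 CPM in the others, and Cyp2d9 152, 222 and 1962 CPM, against 1775, 1947 and 2193 CPM. CJL male 8 and 12:12 male 3 were thus within the female range for Hsd3b5 (0.406 to 7.77 CPM) and above it for Cyp2d9 (44.4 to 91.1 CPM). Cyp7b1 had 22.3, 21.4 and 183 CPM, against 155, 217 and 257 CPM. Cyp4a12a had 2.46, 6.79 and 250.1 CPM, against 288, 404 and 779 CPM. Elovl3 had 0.868, 0.207 and 24.1 CPM, against 12.7, 34.0 and 265 CPM. Of CJL male 8 and 12:12 male 3, the second was lower for Elovl3, Slco1a1 and Cyp7b1, and the first for the other 6 genes. Slco1a1 had 41.1, 22.7 and 439 CPM, against 310, 470 and 572 CPM. Nox4 stood closest to the other males, with 16.6, 23.1 and 36.4 CPM, against 21.5, 35.4 and 40.8 CPM. Set against females with Cd79a under 8 CPM, each of these 2 males was below their range for 2 genes, within it for 4 and above it for 3.

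With all 3 Cd79a-high males in the fit, beside 7 others and with lighting as a term, none of the 9 genes passed the threshold, although 2.37% of the 15372 genes tested passed as lower. All 9 log2 fold changes were negative, from -3.25 (Mup20, SE 1.23, adjusted p = 0.103) to -0.62 (Nox4, SE 0.211, adjusted p = 0.0719), with a median of -1.91 against -0.006 over all genes. Of the 9, 6 had an unadjusted p under 0.05, and DESeq2 passed 4 of 9 (Mup20, Cyp4a12a, Cyp7b1 and Nox4; 7.99% of all genes passed as lower). The result turned on 12:12 male 5, which was singled out after its levels of the members were seen. Fits without it, here and below, describe CJL male 8 and 12:12 male 3, and their p-values are not independent evidence. Without 12:12 male 5 all 9 passed as lower in CJL male 8 and 12:12 male 3, beside 10.3% of all genes. The log2 fold changes were then -7.70 ± 0.709 for Elovl3, -7.39 ± 0.347 for Hsd3b5, -7.06 ± 0.412 for Mup20, -6.94 ± 0.677 for Cyp4a12a and -6.11 ± 0.378 for Mup3. They were -4.04 ± 0.303 for Slco1a1, -3.58 ± 0.248 for Cyp2d9, -3.45 ± 0.262 for Cyp7b1 and -0.90 ± 0.197 for Nox4 (adjusted p = 0.0069 or less for the 9). Without CJL male 8 instead none passed, and the changes ran from -2.32 for Mup20 to -0.41 for Nox4. In bulk tissue fewer cells of a type and less RNA per cell cannot be told apart.

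Markers of other cells moved with these libraries. The B-lineage list held Cd79a, the gene that divides the libraries, and is given here without it. The summed level of the other 19 genes was 572 CPM in CJL male 8, 255 CPM in 12:12 male 3 and 108 CPM in 12:12 male 5, against 12.5 to 18.4 CPM in the other males. Of these 14 were tested and 12 passed as higher, beside 12.1% of all 15372 genes tested. As the split was made by a gene of the same lineage, this count describes the split and is not read as a result. The sum of 20 proliferation genes was 1472, 477 and 299 CPM, against 56.5 to 81.1 CPM, and all 19 tested passed as higher. Macrophage and Kupffer cell genes summed to 1943, 625.1 and 1260 CPM, against 327 to 574 CPM, and 10 of 11 passed as higher. Neutrophil genes summed to 206, 40.1 and 21.1 CPM, against 3.53 to 7.17 CPM, and all 7 tested passed as higher. Within the B-lineage list, Igll1, a precursor B cell gene, was at 0 in 12:12 male 5 and Rag1 at 0 in CJL male 8. Both genes were too low to be tested in this contrast and were named after their values were seen. The 20 hepatocyte genes summed to 307740, 282660 and 210820 CPM, against 182390 to 208160 CPM, and Alb alone made up 71.9%, 62.9% and 61.2% of that sum, against 52.9% to 59.7%. None of the 20 passed in either direction over all libraries. Without 12:12 male 5, Alb (0.64) and Trf, the transferrin gene (0.59), passed as higher, and Cebpa, a hepatocyte transcription factor (-1.38, adjusted p = 0.00536), and Ttr, the gene of the carrier transthyretin (-1.05, adjusted p = 0.018), as lower. That is 2 of 20 each way, beside 15.8% of all genes as higher and 10.3% as lower, so these counts are description only. DESeq2 passed Cebpa and Ttr as lower over all libraries (adjusted p = 0.0108 and 0.0188), beside 7.99% of all genes. Acute phase genes summed to 14039, 18763 and 9471 CPM, against 8364 to 14184 CPM, and 1 of 18 passed (Apcs, higher). Without 12:12 male 5, 6 of the 18 passed as higher and 1 as lower, beside 15.8% and 10.3% of all genes. The lower was Hamp, the gene of the iron hormone hepcidin (-2.40, adjusted p = 0.00127). Of the T and NK cell genes 1 passed as higher and 1 as lower among 8 tested, of the endothelial genes 3 as higher among 9, of the stellate cell and fibroblast genes 1 as higher among 9, and of the cholangiocyte genes 1 as lower among 6. Over all libraries 12.1% of all genes passed as higher and 2.37% as lower. Mitochondrial transcripts summed to values from 61801 to 72320 CPM, against 57355 to 71018 CPM. The part of the B-lineage, proliferation, immune, hepatocyte and acute phase signals in the level of the 9 genes was not tested. The library that kept the genes, 12:12 male 5, had more macrophage RNA than 12:12 male 3 and less B-lineage RNA than CJL male 8 and 12:12 male 3.

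**Figure D4:**
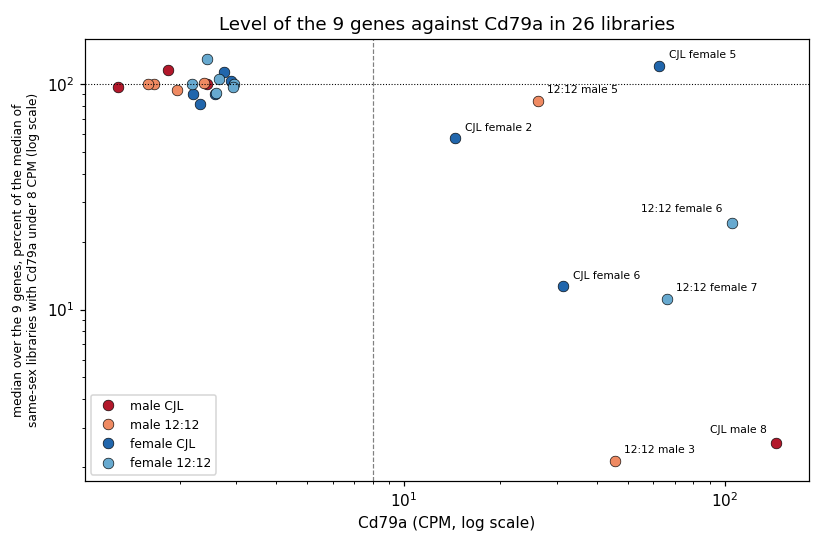
Median level of the 9 genes, as a percent of the median of same-sex libraries with Cd79a under 8 CPM, against Cd79a in CPM, both on log scales, for all 26 libraries. The dashed line marks 8 CPM. To its left the values lie between 81.7% and 129%, and to its right between 2.14% and 120%, with 12:12 male 5 and CJL female 5 near the level of the other libraries.

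Other genes of the sex-dependent programme showed the same division in males. Of 34 further male-biased genes 33 were tested and 11 passed as lower over all 3 Cd79a-high males, beside 2.37% of all genes. None passed as higher, and the median log2 fold change was -1.79. Without 12:12 male 5, 30 of 33 passed as lower, beside 10.3% of all genes, with a median of -3.33. By library 33 of 34 were below all 7 other males in CJL male 8, 30 in 12:12 male 3 and 15 in 12:12 male 5. Among genes with a male median of at least 1 CPM the shares were 21.98%, 16.01% and 4.67%. C9, which encodes a component of the complement pore, had 41.5, 162 and 392 CPM in these 3 libraries, against 470.2 to 676 CPM in the others (log2 fold change -1.88 ± 0.516, adjusted p = 0.0322). Ugt2b38 and Ugt2b1, glucuronosyltransferases, passed at -1.53 ± 0.374 and -1.42 ± 0.410, as did Gstp2, a glutathione transferase, at -1.42 ± 0.402. Cib3, a calcium-binding protein gene, passed at -3.01 ± 0.665 and Cspg5, a proteoglycan gene, at -3.04 ± 0.784.

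Of 32 female-biased genes listed, 23 were tested over the 3 Cd79a-high males. Of these 11 passed as higher, none passed as lower and 12 did not pass, beside 12.1% of all genes as higher, and 18 of the 23 values were positive. Without 12:12 male 5, 17 passed as higher, beside 15.8% of all genes. By library 22 of 32 were above all 7 other males in CJL male 8, 22 in 12:12 male 3 and 6 in 12:12 male 5. The share of all genes above all 7 is not given here, so these counts are description only. The transporter genes Slc22a26 and Slc22a27 passed at 7.30 ± 0.992 and 3.19 ± 0.437, and the cytochrome P450 genes Cyp2b13, Cyp2c69 and Cyp2c39 at 6.51 ± 0.986, 3.98 ± 0.641 and 2.05 ± 0.386. Cyp2b13 had 74.7 and 47.1 CPM in CJL male 8 and 12:12 male 3, under the 243 to 553 CPM of females with Cd79a under 8 CPM.

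Of 18 tested regulators tied to growth hormone in liver, 4 passed as higher and 2 as lower, beside 12.1% and 2.37% of all genes. Cux2, a female-specific repressor of male-biased genes, had 60.4, 33.0 and 0.670 CPM in CJL male 8, 12:12 male 3 and 12:12 male 5, against 0.205 to 1.83 CPM in the other males and 40.2 to 134 CPM in females with Cd79a under 8 CPM (log2 fold change in males 5.22 ± 0.997, adjusted p = 0.00664). Bcl6, a repressor that is more abundant in male liver, had 4.05, 3.89 and 10.1 CPM, against 10.02 to 59.7 CPM in the other males (-2.38 ± 0.662, adjusted p = 0.0349). Foxa1, a pioneer factor, was lower at -1.16 ± 0.341. Ezh2, a histone methyltransferase that is abundant in dividing cells, was higher at 2.32 ± 0.254, as were the HMG-box factor gene Tox (1.03 ± 0.208) and the nuclear receptor cofactor gene Trim24 (0.93 ± 0.260).

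Of 20 listed growth hormone signalling genes, which include the prolactin and leptin receptors, 3 passed as higher and none as lower. The shares of all genes were 12.1% and 2.37%. Prlr here and Tox among the regulators are also on the female-biased list and count in both. Igfbp1, an IGF-binding protein induced when insulin is low, had 188, 84.2 and 6.76 CPM in CJL male 8, 12:12 male 3 and 12:12 male 5, against 1.54 to 15.5 CPM in the others (3.24 ± 0.650, adjusted p = 0.00839). Prlr, the prolactin receptor, had 502, 236 and 123 CPM, against 82.8 to 116 CPM (1.35 ± 0.296, adjusted p = 0.0108), and Lepr, the leptin receptor, passed at 2.13 ± 0.509. Igf1, the main hepatic target of growth hormone, had 188, 262 and 301 CPM, against 245 to 334 CPM in the others. Its log2 fold change of -0.48 ± 0.195 did not pass (adjusted p = 0.121), and without 12:12 male 5 it was -0.62 (adjusted p = 0.0486). Ghr and Stat5b, the receptor and its transducer, are named for their place in the pathway, after their values were seen. Ghr had 391, 170.3 and 437 CPM, against 278 to 464 CPM (-0.40 ± 0.263, adjusted p = 0.307), and Stat5b had 38.9, 35.6 and 31.2 CPM, against 27.03 to 50.3 CPM (-0.04 ± 0.170, adjusted p = 0.897). Neither passed the threshold.

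Among the 9 members only Cyp7b1 was below the other 11 females in all 5 females with Cd79a of 8 CPM or more. Of the 8 genes tested 3 passed as lower (Mup3, Elovl3 and Cyp7b1), beside 14% of the 15476 genes tested; Cyp4a12a was too low to be tested. Mup3 had 473, 1108 and 59.2 CPM in CJL females 2, 5 and 6 and 81.9 and 73.2 CPM in 12:12 females 6 and 7, against 794 to 2024 CPM (median 1545) in the other 11. Its log2 fold change was -2.59 ± 0.663 (adjusted p = 0.00733). Elovl3 had 0.230, 2.51, 0.122, 0.214 and 0.149 CPM in the same order, against 0.778 to 3.58 CPM (-2.06 ± 0.585, adjusted p = 0.0113). Cyp7b1 had 15.1, 12.9, 9.14, 9.77 and 7.65 CPM, against 17.2 to 39.0 CPM with no overlap, as for 1.15% of the 16892 genes (-1.31 ± 0.193, adjusted p = 4.74e-05). Slco1a1 had 5.29, 137, 5.42, 4.25 and 1.77 CPM, against 21.5 to 112 CPM, and did not pass (-1.53 ± 1.00, adjusted p = 0.267). CJL female 5 stood apart: its median over the 9 genes was 120% of that of the other 11 females, against 57.4%, 12.7%, 24.3% and 11.1% in CJL females 2 and 6 and 12:12 females 6 and 7. That library too was singled out after its levels were seen, so p-values without it are not independent evidence. Without CJL female 5, 6 of 8 passed as lower, beside 14.5% of all genes, among them Slco1a1 at -3.99 ± 0.523, Hsd3b5 at -3.64 ± 0.807 and Mup20 at -2.08 ± 0.441. Markers of other cells moved in the same contrast. All 11 macrophage and Kupffer cell genes, all 6 neutrophil genes tested and all 19 proliferation genes tested passed as higher, beside 19.6% of all genes, and 5 of 20 hepatocyte genes as lower, beside 14%. In these 5 females the macrophage and Kupffer cell genes summed to 922 to 2878 CPM, against 442 to 713 CPM in the other 11, the neutrophil genes to 20.005 to 462 CPM, against 5.55 to 13.3 CPM, and the proliferation genes to 148 to 1200 CPM, against 61.4 to 92.1 CPM. The part of these signals in the levels of the members was not tested. CJL female 5 had 230.3 CPM of B-lineage RNA without Cd79a, more than the 142.5 CPM of CJL female 6 and the 60.5 CPM of CJL female 2. Cyp2d9 and Nox4 did not pass in females, at -0.14 ± 0.272 and -0.17 ± 0.184. Without CJL female 2, whose 139.6 CPM was the highest female value, Cyp2d9 was at -0.54 (adjusted p = 0.0343). The difference between males and females in the Cd79a contrast was tested by an interaction term, and none of the 9 genes passed (0.213% of all genes did; 1223 genes, and Cyp2d9 of the 9, had an unadjusted p under 0.05, and DESeq2 passed 92 genes and no member). Without 12:12 male 5, 5 of 9 passed with a larger fall in males (Mup20, Elovl3, Cyp4a12a, Cyp7b1 and Cyp2d9, from -6.11 for Mup20 to -2.17 for Cyp7b1), beside 1.36% of all genes. That fit left out the male that kept the genes and retained CJL female 5, at 120%. The larger fall therefore cannot be read as a difference between the sexes. Cyp4a12a was too low in females for a fall to be seen.

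CJL itself was compared with 12:12 within each sex. In males none of the 9 genes passed over all libraries (0.0118% of 16892 genes tested did; 1630 had an unadjusted p under 0.05, and DESeq2 passed 89 genes and no member), and in females none did either (0% passed; 772 had an unadjusted p under 0.05, and DESeq2 passed 55 genes and no member). The log2 fold changes in males ran from -0.36 (Nox4) to 3.21 (Elovl3), with a median of 0.02, and those in females from -0.66 (Cyp4a12a) to 0.66 (Elovl3), with a median of -0.02. Elovl3 was the exception among the members in males once Cd79a-high libraries were left out. It then had 131, 265 and 235 CPM in the 3 CJL males, against 13.3, 12.7, 25.0 and 34.0 CPM in the 4 males under 12:12. The groups did not overlap, as 5.9% of the 16892 genes did not in that direction, and Elovl3 rose by 3.34 ± 0.424 on the log2 scale (adjusted p = 0.000997), where 0.858% of the 16431 genes tested passed as higher. It also passed with each of those 7 males left out in turn (3.12 to 3.66, adjusted p from 0.000791 to 0.00612). Over all 10 males the value was 3.21 ± 0.995 (adjusted p = 0.281). The libraries left out had 0.868 CPM (CJL male 8), 0.207 CPM (12:12 male 3) and 24.1 CPM (12:12 male 5), and leaving out CJL male 8 alone gave 3.61 (adjusted p = 0.0502). Elovl3 is known for a daily rhythm in male liver, and as the sources used here do not give the hour of sampling, a shift in rhythm and a change in daily level cannot be told apart. In females with Cd79a under 8 CPM Elovl3 had 1.47 to 3.58 CPM under CJL (n = 5), against 0.778 to 2.35 CPM under 12:12 (n = 6), a change of 0.69 ± 0.370 that did not pass (adjusted p = 0.725).

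The other 8 genes overlapped between CJL and 12:12 in males with Cd79a under 8 CPM. Mup20 averaged 1512 ± 165 CPM under CJL (SD, n = 3) and 1178 ± 220.4 CPM under 12:12 (SD, n = 4), a log2 fold change of 0.34 ± 0.241 (adjusted p = 0.501). Cyp2d9 averaged 2055 ± 126 CPM under CJL and 1893 ± 82.7 CPM under 12:12 (0.12 ± 0.186, adjusted p = 0.790). Slco1a1 averaged 430.2 ± 133 CPM and 481 ± 21.4 CPM (-0.19 ± 0.434), and Nox4 29.6 ± 9.88 CPM and 35.9 ± 3.62 CPM (-0.31 ± 0.180, adjusted p = 0.403). Over all libraries no gene on the lists of other male-biased genes, female-biased genes, growth hormone signalling genes and growth hormone regulators passed for CJL in either sex. In males with Cd79a under 8 CPM, 1 of 32 female-biased genes and 1 of 18 regulators passed as lower under CJL, beside 0.475% of the 16431 genes tested, and none of 33 other male-biased and 20 signalling genes passed. They were Cyp2a4, a steroid hydroxylase (-1.90 ± 0.306, adjusted p = 0.00336), and Trim24 (-1.18 ± 0.161, adjusted p = 0.000917), named after their values were seen.

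Across the 10 males the log2 levels of the 9 genes ran in parallel, with Pearson correlations of 0.57 to 0.998 over the 36 pairs (median 0.97); these rest on CJL male 8 and 12:12 male 3, in which all or most of them were low. Across the 16 females they ran from 0.058 to 0.913 (median 0.41). The 10 other genes whose pattern in males was closest to the mean of the set were Gm21320, Hsd3b4, Mup10, Mup9, Mup8, LOC100048884, Mup11, Mup12, Mup19 and Gm30843, with correlations of 0.995 to 0.997. Mup9, another urinary protein gene, had 56.8 CPM in CJL male 8, 83.8 CPM in 12:12 male 3 and 8181 CPM in 12:12 male 5, against 9289 to 14420 CPM in the other males. Sequence shared between relatives limits how far single genes can be told apart here. Of 50-base stretches in the transcripts of Mup20, 50.5% also occurred in another gene, as did 13.3% for Mup3, 48.9% for Cyp4a12a (all with Cyp4a12b), 21.2% for Hsd3b5 and 21.8% for Cyp2d9. For Cyp7b1 and Elovl3 none did, for Nox4 0.246% and for Slco1a1 1.64%, so the levels of these 4 are the least open to exchange of reads with a copy.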

How the data were processed

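The authors deposited a raw table of expected counts per gene name and library, without normalization; per the submitters' processing notes STAR, DESeq2 and the mm10 build were used, and per the labels' protocols the libraries were stranded mRNA libraries. The sources used here do not give the counting tool, annotation or strand setting. A value of 0.015 filled 45.82% of cells and stood for 0, and 1.44% of cells were not whole (tolerance 1e-06) and were rounded for the fits. CPM is the count divided by the library's column sum, scaled to a common size. Genes were kept by filterByExpr (count minimum 10), scaled by TMM and tested with edgeR 4.0.16 (quasi-likelihood, robust) in R 4.3.3, with Benjamini-Hochberg adjustment over all genes tested and a threshold of 0.05. The standard error (SE) is the log2 fold change divided by the square root of F. Sex and lighting contrasts came from the 4 group means over 26 libraries, the Cd79a contrasts from the 10 male and the 16 female libraries with lighting as a term, and their difference from all 26. DESeq2 1.42.0 was an alternative, and the fits were tested on simulated data. No 2 libraries of a group were copies (chi-square per degree of freedom at least 29.0). Limits from counts cover counting error only. The members, the 16 gene lists (259 of 261 entries found) and the Cd79a limit were chosen with earlier results of these data known. All 9 members were named. From each other list at most 6 genes with the smallest p in the male Cd79a contrast were named, and further genes were the 10 closest in pattern over males.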

Additional observations from a re-analysis of the deposited data

Results flagged for a closer look

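Each of the 9 genes was checked in each of the 4 groups for a library that stood apart from the rest of its group by Dixon's test, and 7 of 36 checks found one. By chance a single check finds one in about 1 in 20 groups. The 36 checks are not independent, as the genes share libraries and ran in parallel in males, so the count is not compared with that rate. CJL male 8 stood apart low for Cyp2d9 (152 CPM). The library 12:12 male 3 stood apart low for Mup3 (151 CPM), Slco1a1 (22.7 CPM), Hsd3b5 (2.13 CPM) and Cyp2d9 (222 CPM). CJL female 2 stood apart high for Cyp2d9 (139.6 CPM), and 12:12 female 5 stood apart high for Cyp4a12a (2.00 CPM). The first 3 of these libraries had Cd79a of 8 CPM or more, and 12:12 female 5 did not.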

How the results depend on the processing

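The number of the 9 genes past the threshold in the male Cd79a contrast was 0 with edgeR and 4 with DESeq2, where 2.37% and 7.99% of all genes passed as lower. With all 26 libraries in the fit it was 4, and the count over all genes is given below. With 1 library left out it was 0 to 9, and 9 only without 12:12 male 5, where 10.3% of all genes passed as lower. In females it was 3, beside 14% of all genes as lower, and 3 to 6 with 1 library left out (14.5% without CJL female 5). For the difference between the sexes it was 0 to 5 (0.213% of all genes over all libraries and 1.36% without 12:12 male 5). For CJL in males it was 0, and 1 (Elovl3) without libraries with Cd79a of 8 CPM or more, also with each of those 7 males left out in turn (1 to 1), an alternative chosen after seeing the data. The shares of all genes were 0.0118% over all libraries and 0.858% as higher without the Cd79a-high libraries. Under 12:12 the sex contrast passed 7 to 8 genes and under CJL 7 to 9 with 1 library left out. Over all libraries 1.67% and 1.05% of all genes passed as higher in males. Shares of all genes for the other fits with 1 library left out are not given here, so those counts are description only. The Cd79a limits of 4 and 16 CPM could not change the male contrast, as no male lay between 2.42 and 26.2 CPM. At 16 CPM Elovl3 in females no longer passed (-1.65, adjusted p = 0.0859). Scaling to hepatocyte genes moved the median of all genes in the male Cd79a contrast from -0.006 to -0.269, with the members at -1.95.

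Of the values that changed sign, only the Elovl3 difference between the sexes without 12:12 male 5 (-5.793) passed the threshold, and the cause was not tested. For CJL in females these were Mup3 (0.051 scaled to hepatocyte genes, 0.007 without Cd79a-high libraries, 0.723 with the Cd79a class as a term), Slco1a1 (-0.116), Hsd3b5 (0.000) and Cyp2d9 (-0.225) without Cd79a-high libraries, and Mup20 (0.733) and Cyp7b1 (0.069) with the class as a term. In males these were Cyp2d9 (-0.001 with no filter on low counts, -0.028 scaled to hepatocyte genes, -0.128 with the class as a term, -0.022 with males only), Hsd3b5 (0.048 without Cd79a-high libraries), Mup3 (-0.588) and Cyp4a12a (-0.328) with the class as a term. The Elovl3 difference between the sexes in the Cd79a contrast was -0.406 at 16 CPM and -2.102 with no lighting term. With 1 library left out, CJL values in females ran from -0.107 to 0.196 (Cyp2d9), -0.968 to 1.295 (Cyp4a12a), -0.062 to 0.680 (Hsd3b5), -0.336 to 0.107 (Mup20), -0.194 to 0.165 (Mup3) and -0.152 to 0.494 (Slco1a1). In males they ran from -0.272 to 0.392 (Cyp2d9), -0.553 to 0.531 (Cyp4a12a), -0.487 to 0.110 (Cyp7b1), -0.272 to 0.389 (Hsd3b5), -0.296 to 0.569 (Mup3) and -0.536 to 0.126 (Slco1a1). Among males with Cd79a under 8 CPM, with 1 left out, the sign changed for Hsd3b5 (0.160, 0.029, 0.005, 0.102 and 0.059), Cyp4a12a (-0.084 and -0.405) and Mup3 (-0.071). The Elovl3 difference in the Cd79a contrast ran from -5.793 to 1.604, and Cyp2d9 in that contrast in females from -0.542 to 0.119.

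Equal replicate numbers did not pair the mice: correlations of same-numbered deviations ran from -0.384 to 0.602 in females and were -0.269 and 0.267 in males, and 1 of 8 female pairs was closest to its own number. With a replicate block 0 members passed for CJL, and Mup3 (0.037) and Cyp4a12a (0.009) in females and Cyp7b1 (0.364), Slco1a1 (0.125) and Hsd3b5 (0.304) in males changed sign, with 19 and 4 genes past the threshold.

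Counts over all genes moved more. For CJL in females 0 genes passed, and 2 scaled to hepatocyte genes, 8 with the class as a term, 13 without Cd79a-high libraries, 14 with females only and 55 with DESeq2. For CJL in males the count was 2, and 0 with DESeq2 size factors or males only, 39, 89 and 219 with the class as a term, DESeq2 and no Cd79a-high libraries. For males against females under CJL it was 324, and 649 with DESeq2, 828 with the class as a term and 1902 without Cd79a-high libraries, and under 12:12 622, and 402 scaled to hepatocyte genes, 977, 1250 and 1357. In the male Cd79a contrast it was 2221, and 1418 scaled to hepatocyte genes, 3448 with DESeq2 and 4844 with all libraries, and for the difference between the sexes 36, and 92 with DESeq2 and 24 scaled to hepatocyte genes.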
